A study of Homo sapiens with 9 samples.

Results

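Aminoacyl-tRNA synthetases are the enzymes that attach each amino acid to its transfer RNA. The genes described here are 35 listed synthetase genes, 19 whose enzymes work in the cytosol and 16 whose enzymes work in mitochondria, found by symbol among the 67071 gene identifiers of a single count table. All 35 were found in the table, 17 of them under older symbols that lack the final 1. They were not chosen by a threshold on expression, and 32 of them, 18 cytosolic and 14 mitochondrial, had enough counts to be tested, as part of the 16855 genes that were. The 9 libraries are from 22Rv1, a cell line of human prostate cancer, and form 3 groups of 3. The control group was given a hairpin RNA that targets GFP (shGFP, labelled wild type). Knockdown cells carried hairpin 1 or hairpin 2 against CHD9, a chromatin-remodelling helicase (shCHD9_1 and shCHD9_2). The series is titled for a screen of RNA methylation sites with METTL3, and its design text names control against CHD9 knockdown as the comparison.

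Each cytosolic synthetase charges tRNAs for the ribosomes of the cytosol, and a separate nuclear gene usually encodes the enzyme that is imported to charge the tRNAs of mitochondria. A few genes, GARS1 and KARS1 among those here, make both forms, and they are kept with the cytosolic group. Several cytosolic enzymes sit together in a multisynthetase complex. When amino acids run short or unfolded protein collects in the endoplasmic reticulum, phosphorylation of the initiation factor eIF2 raises translation of the transcription factor ATF4, which is known to increase transcription of many cytosolic synthetase genes but of few mitochondrial ones.

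Total counts per library ranged from 18911142 to 31968602. The common biological coefficient of variation was 2.74%, a single value fitted over all tested genes with counting noise set aside. Levels are given as CPM, the counts of a gene relative to the scaled library total, on a scale common to all libraries. Libraries of 1 group differed by more than counting noise (chi-square per degree of freedom 1.72 to 2.83 over the 9 pairs). Whether replicates were separate cultures is not stated in the labels, so p-values here reflect the spread among these libraries alone, and that spread may be technical. CHD9 was at 22.8, 20.6 and 23.2 CPM in shGFP, 14.8, 16.7 and 14.9 CPM with hairpin 1, and 18.4, 18.8 and 19.3 CPM with hairpin 2, so the 3 groups did not overlap and the fall was larger with hairpin 1. The 6 luminal prostate markers KLK3, HOXB13, KRT8, KRT18, FOXA1 and TMPRSS2 all reached 1 CPM. Their summed level was 1278 to 1304 CPM in shGFP, 1360 to 1388 with hairpin 1 and 1268 to 1300 with hairpin 2. Single luminal markers moved in both directions, with rises of HOXB13 (log2 fold change 0.70 with hairpin 1 and 0.59 with hairpin 2) and KLK3 (0.50 and 0.50) and falls of FOXA1 (-0.31 and -0.27). The summed levels of basal, endothelial and leukocyte markers each stayed at or under 0.154 CPM, with KRT5, CDH5 and CD3E at 0 in every library. Of 3 stromal markers, COL1A1 and COL3A1 reached 1 CPM, and the sum of the 3 was 6.61 to 7.16 CPM in shGFP against 9.92 to 11.4 with hairpin 1 and 9.96 to 11.8 with hairpin 2. Their part in the results was not tested. In RNA from whole cultures, fewer cells of a type and less RNA per cell cannot be told apart.

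The level of 3 members could not be read from the table. The valyl-tRNA synthetase gene VARS1 (chromosome 6, 31777518 to 31795953, GRCh38) and the mitochondrial seryl-tRNA synthetase gene SARS2 (chromosome 19, 38915266 to 38930896) were listed at 0 in all 9 libraries. VARS2, the mitochondrial valyl enzyme, had 6 counts over all 9 libraries. Low counts extended to most of their neighbours. Among the 20 nearest protein-coding genes, 19 beside VARS1, 17 beside SARS2 and 15 beside VARS2 had under 10 counts over all libraries. Those neighbours included genes that most cells use, such as TUBB and FLOT1 with 0 counts and HNRNPL with 2. How these regions were counted is not given in the sources used here. CARS1, the cysteinyl gene (chromosome 11, 3000922 to 3057613), had 843 counts over all libraries, or 0.348 CPM per kilobase of exon in shGFP, the lowest level of any tested member. Under 10 counts were found for 6 of its 20 neighbours, as for GARS1 and NARS1, so the number of low neighbours does not set it apart. Of genes near it, PHLDA2 had 0 counts and NAP1L4 2509. Whether the reads of CARS1 were fully counted was not tested. CARS1 was tested, but it is left out where levels are compared or summed, a choice made after its values were seen.

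The transcripts of the remaining 31 tested members spanned a wide range of levels per length. In shGFP, EPRS1, which joins the glutamyl and prolyl enzymes in a single protein, was the highest at 91.3 ± 1.56 CPM per kilobase of exon (SD, n = 3). The mitochondrial isoleucyl gene IARS2 came next at 75.7 ± 0.340 and then the glycyl gene GARS1 at 74.4 ± 0.496. FARSA (65.5 ± 2.74), NARS1 (63.3 ± 2.60) and AARS1 (61.0 ± 0.486) followed. In this order FARSA and NARS1, and NARS1 and AARS1, differed by less than the SD of a group, as did QARS1 and KARS1 (56.2 and 55.4 CPM per kilobase). The lowest were the mitochondrial genes PARS2 (6.19), WARS2 (4.09) and FARS2 (3.79 CPM per kilobase). The median was 34.3 CPM per kilobase over 17 cytosolic genes and 14.2 over 14 mitochondrial ones. Exon length here is the union of all annotated exons of a gene, so genes with long rare exons are placed too low.

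The cytosolic enzyme was not always the more abundant transcript of its pair. With CARS1 left out, both genes could be compared for 13 amino acids, which gives 14 pairs because phenylalanine has 2 cytosolic subunits, while EPRS1 serves 2 of the pairs. The cytosolic gene was higher per kilobase in 9 pairs and the mitochondrial gene in 5. FARSA exceeded FARS2 17.28-fold, EPRS1 exceeded PARS2 14.75-fold and NARS1 exceeded NARS2 5.86-fold. The mitochondrial gene was the higher for isoleucine (36.5 CPM per kilobase for IARS1 against 75.7 for IARS2), threonine (19.6 against 32.8) and leucine (15.1 against 22.6). It was also the higher per kilobase for tyrosine (17.4 against 25.0) and histidine (11.5 against 13.0), but there the order depends on the exon lengths. In shGFP CPM not divided by length, YARS1 was above YARS2 (143 against 53.9) and HARS1 above HARS2 (90.2 against 48.6). IARS2 (315 against 269.8), TARS2 (134 against 112) and LARS2 (155 against 123) were above their cytosolic partners in CPM too.

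**Figure D1:**
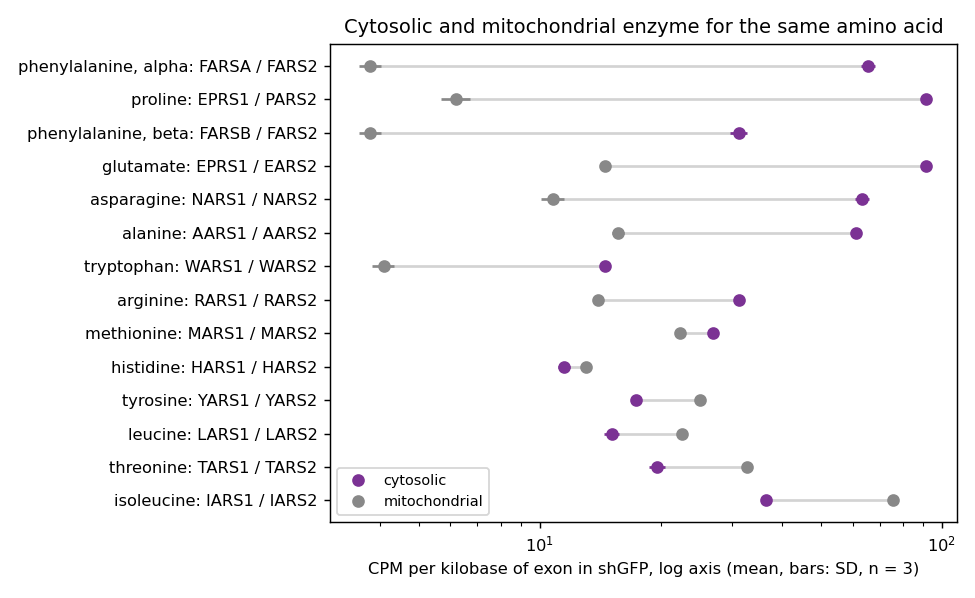
Level of the cytosolic and the mitochondrial gene for the same amino acid in the 3 shGFP libraries, as mean CPM per kilobase of exon on a log axis, with bars for the SD (n = 3). The mitochondrial gene lies to the right of the cytosolic one in the lowest 5 rows, isoleucine, threonine, leucine, tyrosine and histidine.

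The first comparison averaged the 2 CHD9 hairpins and set them against shGFP. Among 18 cytosolic genes 8 fell and 3 rose, and the median log2 fold change was -0.06. Among 14 mitochondrial genes 4 fell and 2 rose, with a median of -0.03. The largest fall was that of the arginyl gene RARS1 (by 0.24 on the log2 scale) and the largest rise that of the mitochondrial cysteinyl gene CARS2 (0.32). Of all genes tested, 22.3% were higher and 23.2% lower in this comparison, and their median was 0.00. The 12 members lower and 5 higher among 32 stand beside those shares. Calls are at an adjusted p under 0.05 in edgeR's quasi-likelihood test with Benjamini-Hochberg adjustment over all 16855 genes, here and below.

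The 2 hairpins gave different counts for the cytosolic genes. With hairpin 1, 11 of 18 cytosolic genes fell and 1 rose (median log2 fold change -0.12), where 23.4% of all genes were lower and 23.9% higher. With hairpin 2, 3 of 18 fell and 4 rose (median 0.01), where 18.5% of all genes were lower and 17.2% higher. The mitochondrial genes gave 3 lower and 3 higher of 14 with hairpin 1 (median -0.07), and 1 lower and 2 higher with hairpin 2 (median 0.01). Both comparisons use the same shGFP libraries. Called lower with each hairpin were 2 members, GARS1 and RARS1, and called higher with each were 2, CARS2 and IARS2, where 13.6% and 13.2% of all genes were called lower and higher with each. Of the other members, 12 were called with hairpin 1 alone, 4 with hairpin 2 alone and 10 with neither. The last 2, IARS1 and MARS1, were lower with hairpin 1 and higher with hairpin 2. For calls with 1 hairpin alone, with neither or in opposite directions, the shares over all genes were not computed. More of all genes were called with hairpin 1 than with hairpin 2, as the shares above show.

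**Figure D2:**
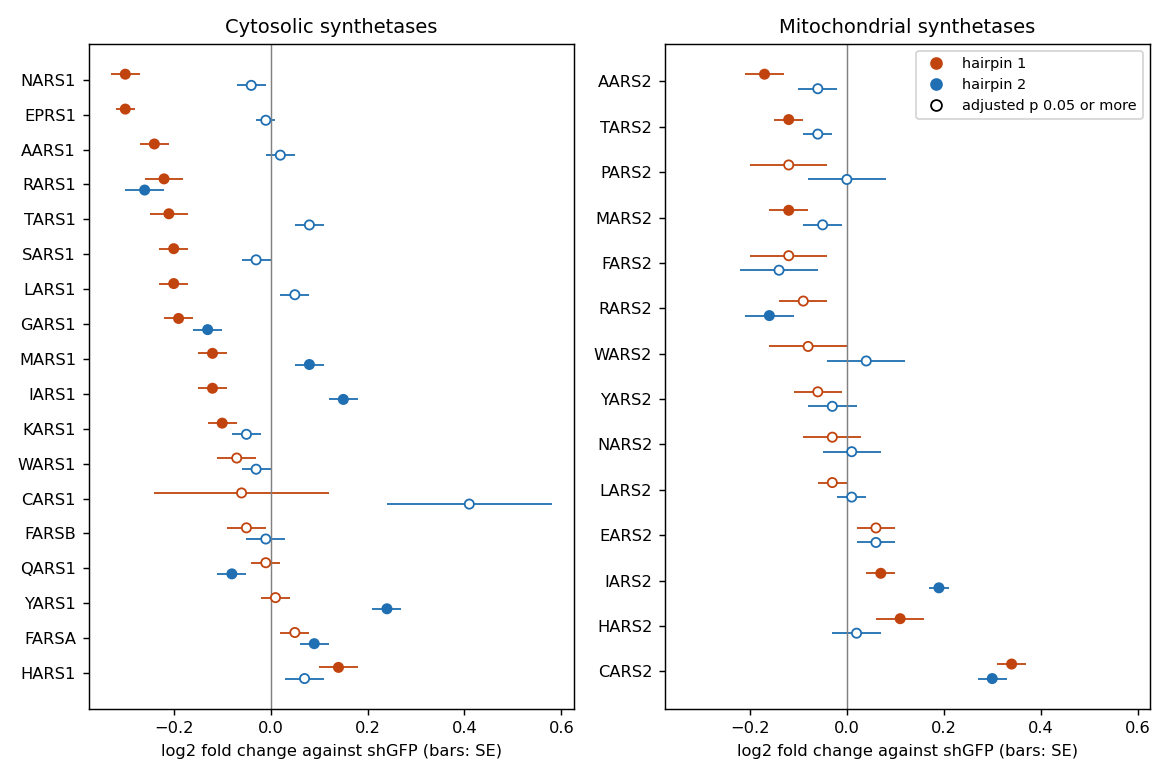
Log2 fold change of each tested member against shGFP with hairpin 1 (orange) and hairpin 2 (blue), with bars for the SE; open symbols did not pass the test. Most orange symbols of the cytosolic panel lie left of 0 and left of their blue partners, down to -0.30 for NARS1 and EPRS1, while in the mitochondrial panel CARS2 stands apart at 0.34 and 0.30.

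Summed over the 17 tested cytosolic genes other than CARS1, the transcripts came to 3364, 3305 and 3389 CPM in shGFP. They came to 3018, 2985 and 3055 CPM with hairpin 1 and to 3385, 3363 and 3362 CPM with hairpin 2. Every hairpin 1 library was below every other library, at a mean of 3019 ± 35.2 CPM, 90.0% of the shGFP mean, while the hairpin 2 mean was 100.5% of it (SD, n = 3). The 14 mitochondrial genes summed to 1126 ± 2.50 CPM in shGFP, 1135 ± 13.0 with hairpin 1 (100.8%) and 1178 ± 14.7 with hairpin 2 (104.6%), as SD with n = 3. Their hairpin 1 and shGFP libraries overlapped, and every hairpin 2 library lay above both. These sums do not stand for each gene, since IARS2 and CARS2 weigh heavily in them. IARS2 averaged 315, 330.4 and 359.7 CPM in shGFP, hairpin 1 and hairpin 2, and CARS2 83.4, 106 and 103 CPM. With hairpin 1, 10 of the 14 log2 fold changes were negative, and with hairpin 2, 6 were negative and 8 positive.

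Of the cytosolic genes that fell with hairpin 1, EPRS1 was the most abundant (ENSG00000136628.18, chromosome 1, 219968601 to 220046658). It was at 493, 492 and 507 CPM in shGFP, 396, 403 and 413 CPM with hairpin 1, and 486, 501 and 499 CPM with hairpin 2. The hairpin 1 libraries lay well below the others, and hairpin 2 overlapped shGFP. EPRS1 fell by 0.30 on the log2 scale with hairpin 1 (SE 0.02, adjusted p = 4.6e-14), and with hairpin 2 its log2 fold change was -0.01 (adjusted p = 0.86). The asparaginyl gene NARS1 (ENSG00000134440.12, chromosome 18, 57600656 to 57622213) had the same shape. Its levels were 266, 246 and 264 CPM in shGFP, 203, 216 and 213 CPM with hairpin 1, and 248, 251 and 255 CPM with hairpin 2. NARS1 fell by 0.30 with hairpin 1 (SE 0.03, adjusted p = 1.9e-11) and had -0.04 with hairpin 2 (adjusted p = 0.28). AARS1, for alanine (ENSG00000090861.16, chromosome 16, 70252295 to 70289543), was at 277, 272 and 274 CPM in shGFP, 239, 224 and 236 CPM with hairpin 1, and 278, 283 and 273 CPM with hairpin 2. Only its hairpin 1 libraries stood apart, below the rest, and it fell by 0.24 with hairpin 1 (SE 0.03, adjusted p = 1.0e-09) against 0.02 with hairpin 2 (adjusted p = 0.56).

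TARS1, LARS1 and SARS1, which charge threonine, leucine and serine, repeated this pattern at lower levels. TARS1 was at 115, 106 and 114 CPM in shGFP, 96.0, 95.6 and 98.5 CPM with hairpin 1, and 117, 121 and 116 CPM with hairpin 2. It fell by 0.21 on the log2 scale with hairpin 1 (SE 0.04, adjusted p = 2.7e-06). With hairpin 2 every library was above every shGFP library, but the difference of 0.08 did not pass (adjusted p = 0.080). LARS1 was at 127, 117 and 124 CPM in shGFP, 105, 109 and 106 CPM with hairpin 1, and 126, 129 and 126 CPM with hairpin 2. It fell by 0.20 with hairpin 1 (SE 0.03, adjusted p = 2.6e-06), the hairpin 1 libraries again lying below all others. After the correction for GC content and length this was -0.03 and did not pass (adjusted p = 0.54), and the value on the mean of both hairpins was 0.06. SARS1 was at 132, 134 and 128 CPM in shGFP, 117, 111 and 115 CPM with hairpin 1, and 134, 128 and 124 CPM with hairpin 2. It fell by 0.20 with hairpin 1 (SE 0.03, adjusted p = 3.1e-06) and had -0.03 with hairpin 2 (adjusted p = 0.52). KARS1, the lysyl gene, fell by 0.10 with hairpin 1 (adjusted p = 0.0022), with -0.05 for hairpin 2 (adjusted p = 0.20). The calls of LARS1 (-0.08) and KARS1 (-0.08) on the mean of both hairpins were each lost without shGFP replicate 1 and without shGFP replicate 3, and that of LARS1 also without hairpin 1 replicate 1 or 3.

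GARS1 and RARS1 were the cytosolic genes that fell with both hairpins. GARS1 (ENSG00000106105.14, chromosome 7, 30594681 to 30634033) was at 309.8, 306 and 310.3 CPM in shGFP, 273, 266 and 271 CPM with hairpin 1, and 288, 279 and 283 CPM with hairpin 2. The 3 groups did not overlap, with shGFP highest and hairpin 1 lowest. GARS1 fell by 0.19 with hairpin 1 (SE 0.03, adjusted p = 2.0e-08) and by 0.13 with hairpin 2 (SE 0.03, adjusted p = 0.00011). RARS1 (ENSG00000113643.9, chromosome 5, 168486445 to 168519299) was at 109, 103 and 109 CPM in shGFP, 92.2, 91.1 and 91.5 CPM with hairpin 1, and 93.4, 87.1 and 87.7 CPM with hairpin 2. Its knockdown libraries all lay below the shGFP ones and overlapped each other. RARS1 fell by 0.22 with hairpin 1 (SE 0.04, adjusted p = 1.1e-06) and by 0.26 with hairpin 2 (SE 0.04, adjusted p = 8.3e-08). Its fall with hairpin 1 was not kept after a correction for GC content and exon length (log2 fold change -0.01), and its fall with hairpin 2 was (-0.15).

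IARS1 and MARS1, for isoleucine and methionine, were called in opposite directions with the 2 hairpins. IARS1 (ENSG00000196305.17, chromosome 9, 92210207 to 92293756) was at 268, 266 and 275 CPM in shGFP, 245, 251 and 248 CPM with hairpin 1, and 295, 297 and 308 CPM with hairpin 2. The groups did not overlap, with shGFP between the hairpins. IARS1 fell by 0.12 with hairpin 1 (SE 0.03, adjusted p = 0.00016) and rose by 0.15 with hairpin 2 (SE 0.03, adjusted p = 8.0e-06). MARS1 (ENSG00000166986.15, chromosome 12, 57475445 to 57517569) was at 191, 187 and 192 CPM in shGFP, 176, 173 and 174 CPM with hairpin 1, and 203, 199 and 199 CPM with hairpin 2, in the same order without overlap. It fell by 0.12 with hairpin 1 (SE 0.03, adjusted p = 0.00030) and rose by 0.08 with hairpin 2 (SE 0.03, adjusted p = 0.026). The hairpin 1 value of IARS1 was 0.01 after the correction for GC content and length. The hairpin 2 call of MARS1 was lost under that correction and without hairpin 2 replicate 1, shGFP replicate 1 or shGFP replicate 2. MARS1 shares 355 exonic bases with DDIT3 on the opposite strand, whose 6885 counts are 16.89% of the 40770 of MARS1. The strand setting of the counting is not given in the sources used here.

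Among the cytosolic genes that rose, YARS1, for tyrosine, moved the most (ENSG00000134684.10, chromosome 1, 32775237 to 32818153). It was at 144, 139 and 146 CPM in shGFP, 144, 137 and 151 CPM with hairpin 1, and 170.2, 168 and 171 CPM with hairpin 2. Hairpin 1 overlapped shGFP and hairpin 2 lay above both. YARS1 rose by 0.24 with hairpin 2 (SE 0.03, adjusted p = 4.6e-08) and had 0.01 with hairpin 1 (adjusted p = 0.82). HARS1, for histidine, was at 89.4, 87.8 and 93.3 CPM in shGFP, 99.0, 98.9 and 99.8 CPM with hairpin 1, and 98.9, 94.9 and 90.5 CPM with hairpin 2, so only hairpin 1 stood above shGFP. It rose by 0.14 with hairpin 1 (SE 0.04, adjusted p = 0.0018). FARSA, the alpha subunit of the phenylalanyl enzyme, overlapped between all groups (153 to 166 CPM in shGFP, 159 to 169.7 with hairpin 1, 164 to 174 with hairpin 2). Its call on the mean of both hairpins (0.07, adjusted p = 0.047) was lost without shGFP replicate 1 or 3, hairpin 1 replicate 1 or 3, or hairpin 2 replicate 3, as was its call with hairpin 2 (0.09, adjusted p = 0.033) without replicate 1 or 3 of hairpin 2 or of shGFP. The value on the mean turned to -0.07 after the correction for GC content and length. The HARS1 call on the mean of both hairpins (0.10, adjusted p = 0.0061) was lost without shGFP replicate 2. HARS1 shares 437 exonic bases with HARS2 and 221 with WDR55, both on the opposite strand, whose counts are 52.88% and 83.91% of its own. YARS1 shares 396 with S100PBP on the opposite strand (25.46%). Other members overlap genes on the opposite strand as well, among them GARS1 (GARS1-DT, 17.83%), KARS1 (TERF2IP, 78.88%) and EARS2 (UBFD1, 200.17%).

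FARSB, QARS1, WARS1 and CARS1 made up the rest. FARSB, the beta subunit of the phenylalanyl enzyme, passed in no comparison (-0.05 with hairpin 1 and -0.01 with hairpin 2), although its partner FARSA was called with hairpin 2. QARS1, for glutamine, fell by 0.08 with hairpin 2 (adjusted p = 0.031), a call lost without any 1 of the hairpin 2 replicates, shGFP replicate 1 or 2, or hairpin 1 replicate 1. WARS1, for tryptophan, had -0.07 with hairpin 1 (adjusted p = 0.087) and -0.03 with hairpin 2. CARS1, for cysteine, passed against shGFP neither with hairpin 1 (-0.06, SE 0.18, adjusted p = 0.83) nor with hairpin 2 (0.41, SE 0.17, adjusted p = 0.053). Its hairpin 2 libraries all lay above the shGFP ones, and that difference passed in 6 of 16 alternatives.

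**Figure D3:**
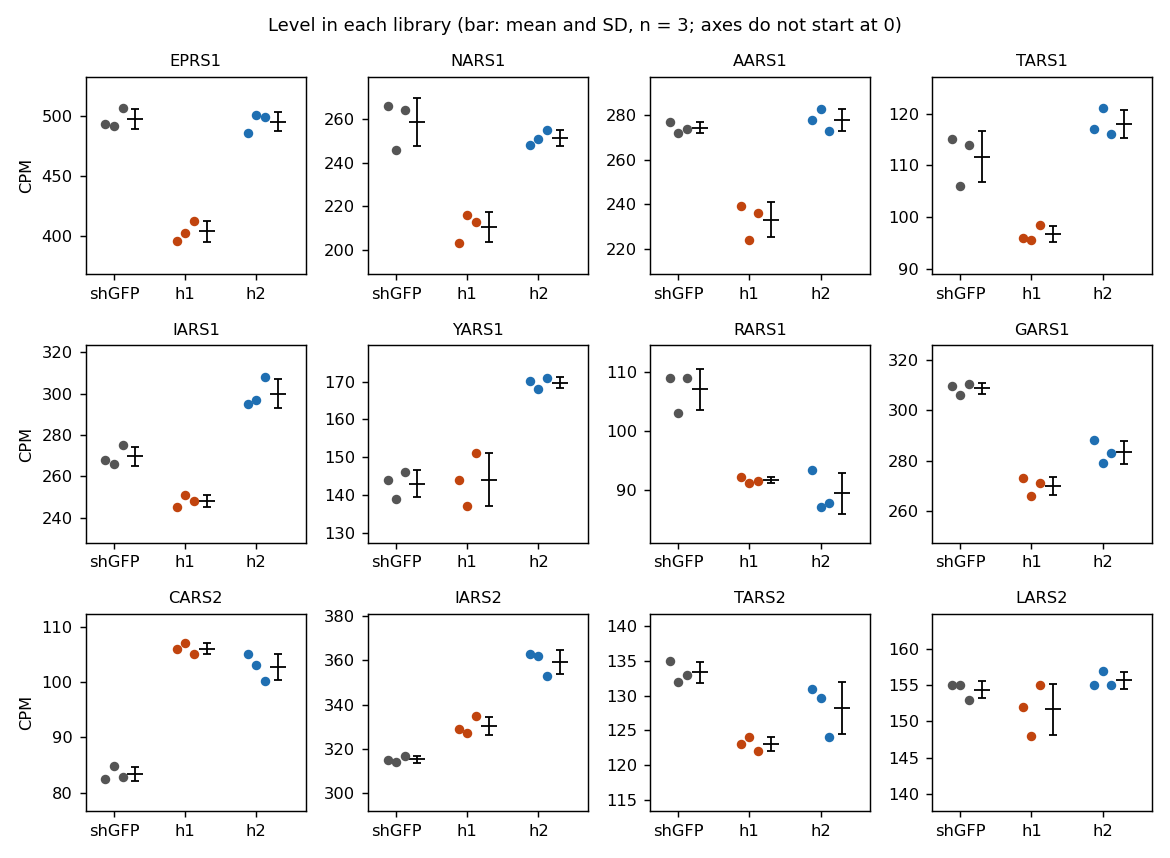
CPM of 12 members in each of the 9 libraries (grey shGFP, orange h1 for hairpin 1, blue h2 for hairpin 2), with the mean and SD of each group (n = 3) as a bar beside its points; axes do not start at 0. EPRS1, NARS1, AARS1 and TARS1 are low with hairpin 1 alone, IARS1 is split to either side of shGFP, RARS1 and GARS1 are low with both, and CARS2 is high with both.

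The direct comparison of hairpin 1 with hairpin 2 does not use the shGFP levels, although those libraries enter the estimate of the spread. In it 11 of 18 cytosolic genes were lower with hairpin 1 and 0 were higher, with a median log2 difference of -0.19. Of all genes tested, 13.6% were lower and 15.6% higher in this comparison. The mitochondrial genes gave 2 of 14 lower and 0 higher, with a median of -0.04. The counts of 0 are those of edgeR, and DESeq2 also called 0 higher in each class. At an unadjusted p under 0.05, 1 cytosolic gene (QARS1) and 1 mitochondrial gene (HARS2) were higher with hairpin 1. Each of the 13 members that passed was lower with hairpin 1. CHD9 itself also was lower with hairpin 1 (-0.28, adjusted p = 0.0024), and a link between the 2 was not tested.

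The 11 cytosolic genes that differed were all from a group widely reported as responsive to ATF4. That group has 13 genes here, AARS1, CARS1, EPRS1, GARS1, IARS1, LARS1, MARS1, NARS1, SARS1, TARS1, VARS1, WARS1 and YARS1, of which 12 were tested. Lower with hairpin 1 than with hairpin 2 were 11 of the 12, with a median difference of -0.25, and WARS1 did not pass (-0.05, adjusted p = 0.36). The differences of EPRS1, TARS1, IARS1, AARS1, LARS1, NARS1, YARS1, MARS1 and SARS1 lay between -0.29 and -0.17, with SE of 0.02 or 0.03. The largest adjusted p among those 9 was that of SARS1, 9.4e-05. GARS1 (-0.07, adjusted p = 0.036) and CARS1 (-0.46, SE 0.17, adjusted p = 0.032) were less firm. CARS1 was at 3.73, 6.01 and 3.91 CPM with hairpin 2 and 3.67, 2.62 and 3.77 CPM with hairpin 1, overlapping ranges in which a single library of each hairpin stood out. Its call was lost without hairpin 1 replicate 2 and without hairpin 2 replicate 2. That of GARS1 was lost without hairpin 1 replicate 2 or 3, hairpin 2 replicate 1 or 3, or shGFP replicate 1.

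In the other 6 cytosolic genes, FARSA, FARSB, HARS1, KARS1, QARS1 and RARS1, 0 passed between the hairpins in edgeR and 0 in DESeq2, and 1 (QARS1, 0.07) had an unadjusted p under 0.05. Their median difference was 0.00 and their range -0.06 to 0.07. The division between the 2 groups follows earlier literature and not these libraries, but both were drawn up with earlier results of these data known, and the division itself was not tested. After the correction for GC content and length, 10 of the 11 genes remained lower with hairpin 1 (GARS1 was lost, median -0.21), and in the other 6 FARSA became lower (-0.10) and RARS1 higher (0.14).

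**Figure D4:**
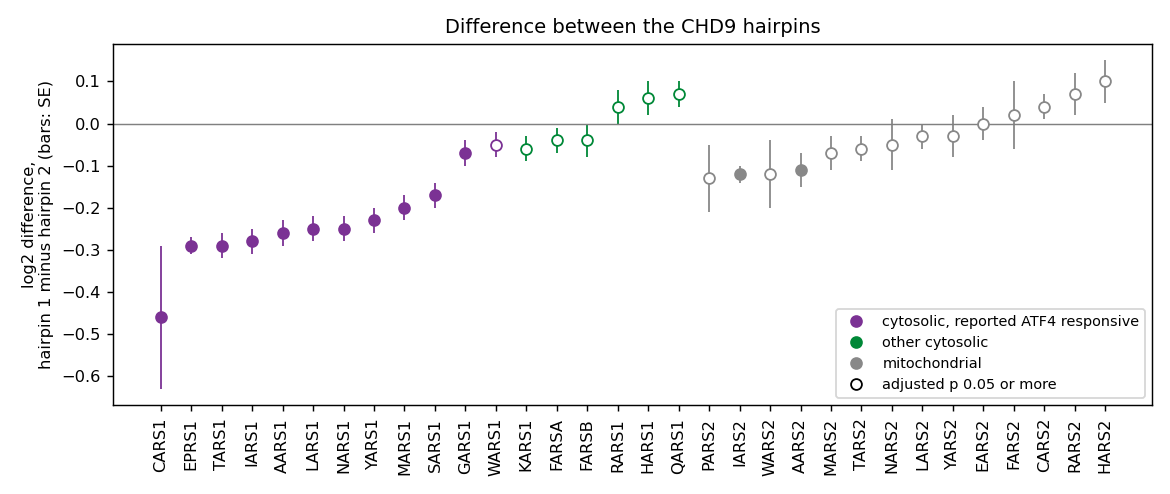
Log2 difference between hairpin 1 and hairpin 2 for the tested members, with bars for the SE, grouped as cytosolic genes reported as ATF4 responsive, other cytosolic genes and mitochondrial genes; open symbols did not pass the test. The first group lies between -0.46 and -0.05, the second between -0.06 and 0.07, and the third between -0.13 and 0.10.

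Promoter sequences of these genes are shown because ATF4, with C/EBP partners, is known to bind an element with the core TGATGNAA, and the 11 cytosolic genes that differed between the hairpins fall in the group reported to answer to it. The other 2 members that differed, AARS2 and IARS2, do not. RefSeq windows of 250 bases before to 50 after the gene start (GRCh38.p14) were given for 30 of the 35 members, and LARS1, YARS1, VARS1, VARS2 and AARS2 had none. The core TGATGNAA, or TTNCATCA on the other strand, was in a window of 7 of 16 cytosolic and 1 of 14 mitochondrial genes, and of 4.46% of all 27305 genes with a window. The stricter form TGATGCAA, or TTGCATCA on the other strand, is contained in the first and was in 6 of 16 cytosolic and 0 of 14 mitochondrial genes, against 1.08% of all genes. All 7 cytosolic genes with the core belong to the 10 ATF4-reported genes with a window, and 0 to the other 6. The 28 bases around each match follow, read 5′ to 3′ along the gene's strand, with the core in capitals.
AARS1: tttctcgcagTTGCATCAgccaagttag
IARS1: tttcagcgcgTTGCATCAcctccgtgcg
MARS1: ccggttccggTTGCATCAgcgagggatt
TARS1: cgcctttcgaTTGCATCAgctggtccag
CARS1: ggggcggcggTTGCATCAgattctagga
NARS1: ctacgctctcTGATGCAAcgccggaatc
GARS1: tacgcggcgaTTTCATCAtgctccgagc

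These stretches lie at chr16:70289676-70289703 (minus strand) for AARS1, chr9:92293693-92293720 (minus) for IARS1, chr12:57488054-57488081 (plus) for MARS1 and chr5:33440957-33440984 (plus) for TARS1. They lie at chr11:3057408-3057435 (minus) for CARS1, chr18:57621805-57621832 (minus) for NARS1 and chr7:30594835-30594862 (plus) for GARS1. Counted from the RefSeq gene start as 0, the core begins at -187 in AARS1, -33 in GARS1, -13 in IARS1, -4 in MARS1, -2 in CARS1, 2 in TARS1 and 14 in NARS1. GARS1 is the only one of the 7 without the stricter form. EPRS1 and SARS1, which differed between the hairpins by -0.29 and -0.17, had neither form in their windows. The mitochondrial match was TGATGGAA in YARS2, whose difference between the hairpins was -0.03 (adjusted p = 0.71). A match is a description of these letters and was not tested as a binding site. Because the ATF4-reported group follows earlier literature on ATF4, matches within it are not a result of these libraries.

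Of the mitochondrial genes, CARS2, for cysteine, changed the most (ENSG00000134905.17, chromosome 13, 110641412 to 110713603). It was at 82.5, 84.8 and 82.9 CPM in shGFP, 106, 107 and 105 CPM with hairpin 1, and 105, 103 and 100.2 CPM with hairpin 2. Every knockdown library lay above every shGFP library. CARS2 rose by 0.34 with hairpin 1 (SE 0.03, adjusted p = 1.8e-11) and by 0.30 with hairpin 2 (SE 0.03, adjusted p = 1.3e-09), and the hairpins did not differ beyond the test (0.04, adjusted p = 0.36). CARS2 shares 326 exonic bases with ING1 on the opposite strand, whose counts are 35.46% of its own. IARS2 (ENSG00000067704.10, chromosome 1, 220094102 to 220148041), the most abundant mitochondrial member, was at 315, 314 and 317 CPM in shGFP, 329, 327 and 335 CPM with hairpin 1, and 363, 362 and 353 CPM with hairpin 2. Its 3 groups did not overlap, and hairpin 2 was the highest. IARS2 rose by 0.07 with hairpin 1 (SE 0.03, adjusted p = 0.024) and by 0.19 with hairpin 2 (SE 0.02, adjusted p = 3.1e-08), and was lower with hairpin 1 than with hairpin 2 by -0.12 (adjusted p = 0.00012). The hairpin 1 call was lost without hairpin 1 replicate 1 or 3 and without shGFP replicate 1 or 2. After the correction for GC content and length both rises were larger (0.24 and 0.28), and the hairpins no longer differed (-0.04).

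The mitochondrial genes that fell were AARS2, TARS2, RARS2 and MARS2, for alanine, threonine, arginine and methionine. AARS2 was at 66.8, 70.2 and 65.8 CPM in shGFP, 58.1, 61.9 and 59.8 CPM with hairpin 1, and 64.0, 66.1 and 64.1 CPM with hairpin 2. Its hairpin 1 libraries lay below all others, and it fell by 0.17 with hairpin 1 (SE 0.04, adjusted p = 0.00053). The correction for GC content and length made this -0.33, and leaving out shGFP replicate 2 ended the call on the mean of both hairpins (-0.12). Its difference between the hairpins (-0.11, adjusted p = 0.034) was lost without hairpin 1 replicate 1 or 3 and without hairpin 2 replicate 2 or 3. TARS2 was at 135, 132 and 133 CPM in shGFP, 123, 124 and 122 CPM with hairpin 1, and 131, 129.6 and 124 CPM with hairpin 2. It fell by 0.12 with hairpin 1 (SE 0.03, adjusted p = 0.0019), where no library reached the shGFP range. RARS2 was at 36.0, 35.3 and 35.3 CPM in shGFP, 32.2, 33.5 and 34.2 CPM with hairpin 1, and 32.8, 31.9 and 30.4 CPM with hairpin 2. It fell by 0.16 with hairpin 2 (SE 0.05, adjusted p = 0.014), a call lost without hairpin 2 replicate 3 and after the correction for GC content and length (-0.06). MARS2 was at 66.8, 68.2 and 67.3 CPM in shGFP, 63.2, 61.6 and 61.1 CPM with hairpin 1, and 64.8, 62.3 and 68.4 CPM with hairpin 2. It fell by 0.12 with hairpin 1 (adjusted p = 0.012), a call lost without hairpin 1 replicate 3. On the mean of both hairpins, 2 of these 4 calls remained without any 1 shGFP library. Those of RARS2 and MARS2 were lost without shGFP replicate 1 and without shGFP replicate 3, and those of AARS2 and MARS2 without shGFP replicate 2. That of RARS2 was also lost without hairpin 1 replicate 1 or hairpin 2 replicate 3, and that of MARS2 without replicate 2 or 3 of hairpin 1 or replicate 1 or 2 of hairpin 2.

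The other 8 tested mitochondrial genes, EARS2, FARS2, HARS2, LARS2, NARS2, PARS2, WARS2 and YARS2, did not pass when the hairpins were averaged, with log2 fold changes from -0.13 (FARS2) to 0.07 (HARS2). HARS2 rose by 0.11 with hairpin 1 (adjusted p = 0.037), a call lost without hairpin 1 replicate 3 or any 1 shGFP replicate. LARS2, at 155 ± 1.17 CPM in shGFP, 152 ± 3.48 CPM for hairpin 1 and 156 ± 0.854 CPM for hairpin 2 (SD, n = 3), overlapped between shGFP and each hairpin. FARS2, PARS2 and WARS2 were near 14.5 to 18.3 CPM in shGFP, and their SE of 0.07 on the mean of both hairpins was above that of most members. HARS2 shares exonic bases with HARS1 on the opposite strand and with ZMAT2 on its own (152 bases), so its reads and theirs may be mixed.

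Side by side, the 2 genes for an amino acid often differed between the hairpins by different amounts. In 13 of the 14 pairs the cytosolic difference, hairpin 1 minus hairpin 2, was below the mitochondrial one, and in 12 of 14 after the correction for GC content and length. Some of these gaps were smaller than the larger SE of the pair. Such were arginine (0.04 for RARS1 and 0.07 for RARS2, SE 0.04 and 0.05) and histidine (0.06 for HARS1 and 0.10 for HARS2, SE 0.04 and 0.05). So was phenylalanine (-0.04 for FARSA and for FARSB, 0.02 for FARS2 with SE 0.08). EPRS1 and FARS2 each enter 2 pairs, so the pairs are not independent. For asparagine it was -0.25 for NARS1 and -0.05 for NARS2. For leucine it was -0.25 for LARS1 and -0.03 for LARS2, and for tyrosine -0.23 for YARS1 and -0.03 for YARS2. For isoleucine both genes were lower with hairpin 1, by -0.28 for IARS1 and -0.12 for IARS2. Tryptophan was the exception, with -0.05 for WARS1 and -0.12 for WARS2, and neither passed. The pairs were not tested as a set.

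The 7 enzymes of the multisynthetase complex here (EPRS1, IARS1, KARS1, LARS1, MARS1, QARS1 and RARS1) gave 6 lower and 0 higher with hairpin 1 in edgeR (0 higher also in DESeq2 and at an unadjusted p under 0.05), and 2 lower and 2 higher with hairpin 2. The shares over all genes were 23.4% lower and 23.9% higher with hairpin 1, and 18.5% and 17.2% with hairpin 2. After the correction for GC content and length, 3 of the 6 falls with hairpin 1 were lost (IARS1 0.01, LARS1 -0.03 and RARS1 -0.01). QARS1, which had not passed with hairpin 1, was called lower after it (-0.09). Of their 3 scaffold proteins, AIMP1 fell by 0.21 with hairpin 1 and by 0.15 with hairpin 2 (adjusted p = 5.4e-07 and 0.00032), while AIMP2 (0.04 and 0.01) and EEF1E1 (-0.16 and 0.20, SE 0.17 and 0.16) did not pass. By structural class, 4 of 16 class I genes were lower and 3 higher on the mean of both hairpins, and 7 of 15 class II genes were lower and 2 higher, where 23.2% of all genes were lower and 22.3% higher. The class I counts are near those shares. EPRS1 holds 1 enzyme of each class and was counted in neither.

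Other genes of the charging and translation apparatus were read from lists drawn up with earlier results of these data known. The shares over all genes on the mean of both hairpins, 22.3% higher and 23.2% lower, stand beside each count here. Of 10 partners of charging and proofreading, 2 rose and 2 fell on that mean, near those shares. Those were DTD1, a D-aminoacyl-tRNA deacylase (0.28), and PSTK, the kinase of selenocysteine charging (0.40), and SEPSECS, the next enzyme of that route (-0.28), and GATB, a subunit of the mitochondrial amidotransferase that makes glutaminyl-tRNA (-0.18). Of 4 tested cytosolic elongation factors 3 rose and 0 fell in edgeR (0 fell also in DESeq2 and at an unadjusted p under 0.05). EEF2, the translocase, was at 2875, 2890 and 2836 CPM in shGFP, 4035, 3993 and 3990 CPM with hairpin 1, and 3158, 3175 and 3201 CPM with hairpin 2, 3 groups without overlap. EEF2 rose by 0.48 with hairpin 1 and 0.15 with hairpin 2 (adjusted p = 1.4e-25 and 7.3e-09). EEF1A2 and EEF1A1, which deliver charged tRNA to the ribosome, rose by 0.83 and 0.31 with hairpin 1 (SE 0.02 each). With hairpin 2 EEF1A2 rose by 0.41 and EEF1A1 did not pass (0.01, adjusted p = 0.58). EEF1A1 has near-identical processed copies in the genome, so its counts are uncertain. EEF1B2 and EEF1G were listed at 0. Of 9 mitochondrial translation factors 4 fell and 2 rose, led by GFM1, a mitochondrial elongation factor G (by 0.49), MTIF2 (by 0.20) and MRRF (a rise of 0.23).

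Of 13 tested genes of the eIF2 and ATF4 arm, 6 fell and 3 rose on the mean of both hairpins, where 23.2% of all genes were lower and 22.3% higher. EIF2AK3, the kinase PERK that senses the endoplasmic reticulum, fell by 0.65 with hairpin 1 and by 0.33 with hairpin 2 (adjusted p = 2.9e-10 and 0.00016). EIF2S1, the phosphorylated subunit of eIF2, fell by 0.31 and by 0.13 (adjusted p = 1.0e-10 and 0.0015). ATF4 mRNA was at 415, 415 and 426 CPM in shGFP, 410.5, 406 and 419 CPM with hairpin 1, and 477, 458 and 445 CPM with hairpin 2, so hairpin 2 stood above the other groups, which overlapped. It was lower with hairpin 1 than with hairpin 2 by -0.16 (SE 0.03, adjusted p = 2.8e-06). Against shGFP it had -0.02 with hairpin 1 (adjusted p = 0.49) and 0.14 with hairpin 2 (adjusted p = 2.9e-05). A link between ATF4 mRNA and the synthetase genes was not tested. In the same arm DDIT3 (-0.27, adjusted p = 0.00024), TRIB3 (-0.13, adjusted p = 0.0025) and CHAC1 (-0.95, SE 0.27, adjusted p = 0.0058) also were lower with hairpin 1 than with hairpin 2. PPP1R15A, a phosphatase subunit for eIF2, went the other way (0.16, adjusted p = 0.015). ASNS did not pass (-0.35, adjusted p = 0.092) and was low (4.77 CPM in shGFP, 4.05 with hairpin 1 and 5.15 with hairpin 2). SESN2 was listed at 0 counts and was not tested. DDIT3 shares 355 exonic bases with MARS1 on the opposite strand, so their reads may be mixed. CHAC1 rests on low levels (1.18 CPM in shGFP, 0.959 with hairpin 1 and 1.84 with hairpin 2). In this list 8 of 13 were lower between the hairpins, where 13.6% of all genes were, and 1 was higher, where 15.6% were. The 1 higher was PPP1R15A. The activity of ATF4, which is set largely by translation, was not measured. Of 19 tested genes of RNA polymerase III and its factors, which transcribe the tRNA genes, 5 fell and 4 rose on the mean of both hairpins, near the shares over all genes (23.2% and 22.3%), among them GTF3C6 (a fall by 0.45), GTF3C3 (by 0.26), POLR3B (by 0.23), POLR3K (a rise of 0.17) and MAF1, a repressor of the polymerase (0.13). The tRNAs themselves were not measured.

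The correction for GC content and exon length, made together, moved several of the small changes, and which of the 2 did so was not tested. Among the members that lost a call or changed direction were RARS1 (40.9% GC in its exons), LARS1 and RARS2 (41.4% each), FARSB (41.6%), EPRS1 (42.3%), IARS1 (43.2%) and FARSA (61.6%), and members of middle GC content such as GARS1 (47.4%) and MARS1 (53.4%) also lost a call. With hairpin 1, 11 cytosolic genes were lower with or without the correction, 8 of them the same. IARS1, LARS1 and RARS1 dropped out, while FARSA, QARS1 and WARS1 came in. EPRS1 and NARS1 kept their falls with hairpin 1 at -0.13 and -0.20, TARS1 at -0.10, and AARS1 and SARS1 at -0.28 and -0.22. CARS2 kept its rises at 0.22 and 0.24.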

How the data were processed

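RNA was sequenced from 9 libraries of 22Rv1 cells. Per the labels' protocols, polyadenylated RNA was made into libraries with a directional kit. Trim Galore, STAR, DESeq2 and hg38 are named in the submitters' processing notes, without versions. Which program counted the reads, with which strand option and annotation, is not given in the sources used here. Raw counts per gene were deposited by the authors, not normalised and not pooled. Samples were grouped by title. Symbols and exons were taken from GENCODE 29 (58541 of 67071 identifiers), and promoter sequences from RefSeq.

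Genes were kept by filterByExpr (minimum count 10), which left 16855, and scaled by TMM. The quasi-likelihood test of edgeR 4.0.16 (R 4.3.3) was fitted to all 9 libraries with a mean per group, and 4 contrasts were tested with Benjamini-Hochberg adjustment over all 16855 genes at 0.05. The script was tested on simulated data. The correction for GC content and exon length used splines with 5 degrees of freedom on the 97.8% of tested genes with both values. The alternatives, run for the members, were DESeq2 1.42.0, its size factors in edgeR, an adjusted p under 0.01, no filter, the compared groups alone, the replicate number as a block, this correction, and each library left out. Counts without CARS1 were added after seeing the data.

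Values per library are given for called members with the largest changes on the mean of both hairpins (up to 6 per class and direction) and for those that differ between the hairpins, and up to 5 genes of each context list with the smallest p are named. Further context genes were named after their values were seen. The members and lists were chosen with earlier results of these data known. Some listed markers are not reported here.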

Additional observations from a re-analysis of the deposited data

Results flagged for a closer look

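IARS1 and MARS1 were called lower with hairpin 1 and higher with hairpin 2, against the same shGFP libraries. The difference itself, hairpin 1 minus hairpin 2, was -0.28 on the log2 scale for IARS1 (SE 0.03, edgeR quasi-likelihood test, Benjamini-Hochberg adjusted p = 2.1e-11) and -0.20 for MARS1 (SE 0.03, adjusted p = 1.9e-07). It passed in all 16 alternatives for each gene, with adjusted p up to 5.7e-09 for IARS1 and 9.3e-06 for MARS1. The fall of IARS1 with hairpin 1 and the rise of MARS1 with hairpin 2 were less stable, as given with those genes.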

How the results depend on the processing

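Most member calls kept their direction and side of the threshold. With the size factors of DESeq2, and with the replicate number as a block, all 128 results for single members did. The numbers did not pair the libraries (same-number correlations from -0.022 to 0.040 over 9 pairs, and 3 libraries correlated best with their own number), and with the replicate block 11 cytosolic genes were lower with hairpin 1, as without it.

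The correction for GC content and length reversed EPRS1 with hairpin 2 (0.08). It reversed FARSA (-0.07 on the mean of both hairpins, -0.12 with hairpin 1, -0.02 with hairpin 2) and FARSB (0.12, 0.15 and 0.09 in the same order). It also reversed IARS1 with hairpin 1 (0.01), LARS1 on the mean (0.06), NARS2 (0.12 on the mean, 0.14 with hairpin 1) and RARS2 (0.03 and 0.13). Here reversed means a change of sign. FARSA with hairpin 2, IARS1 with hairpin 1, and LARS1 and RARS2 on the mean lost their calls and did not pass in the new direction. Under it 2 cytosolic and 5 mitochondrial genes were higher with hairpin 1, 2 mitochondrial genes were lower with hairpin 2, and 1 gene of each class was higher with hairpin 1 than with hairpin 2. The cause was not tested.

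At an adjusted p under 0.01, 2 mitochondrial genes were lower on the mean, 1 was higher with hairpin 1, 0 were lower with hairpin 2 and 1 was lower between the hairpins, and 2 cytosolic genes were higher with hairpin 2. Without the low-count filter 1 mitochondrial gene was higher with hairpin 1 and 1 lower between the hairpins, and the DESeq2 test also gave 1 there.

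Leaving out each library in turn gave 2 to 4 mitochondrial genes lower on the mean, 1 to 3 higher with hairpin 1 (1 without hairpin 1 replicate 3, shGFP replicate 1 or shGFP replicate 2), 0 to 1 lower with hairpin 2 (0 without hairpin 2 replicate 3), 0 to 1 higher between the hairpins (1 without hairpin 2 replicate 1) and 1 to 2 lower there (1 without hairpin 1 replicate 1 or 3, or hairpin 2 replicate 2 or 3). It gave 2 to 5 cytosolic genes higher with hairpin 2 (2 without shGFP replicate 1), 11 in every case lower with hairpin 1, and 9 to 11 lower between the hairpins. Without CARS1, 10 cytosolic genes were lower there.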
